A study of Zea mays with 48 samples.

Results

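FIE1, FIE2, MEG1 and NRP1 are maize genes known for imprinted expression in the endosperm, and each was represented by a probe named for it (P_FIE1, P_FIE2, P_MEG1 and P_NRP1). These 4 probes were taken by name from 3585 probes on a 2-colour cDNA array, 622 of which have an identifier that begins with P_. The array measured the ratio of a hybrid to an inbred parent on 48 hybridisations. RNA came from embryos and endosperm dissected 6 days after pollination. The hybrids 301x005 and 005x301 came from the reciprocal crosses of UH301 and UH005, and 301x250 and 250x301 from those of UH301 and UH250. The selfed lines served as the inbred samples. All were grown in a glasshouse, and the ears of a set were selfed or crossed on 1 day. No transgene, mutation or chemical treatment is named for any group. The first-named line is taken as the seed parent, by convention. Each replicate forms a loop of 4 arrays, in which both reciprocal hybrids were hybridised against both inbred lines. Each tissue had 4 such loops of cross UH301/UH005 and 2 of cross UH301/UH250, or 12 loops in all, and the labels call the replicates biological.

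An imprinted gene is transcribed from the allele of 1 parent more than from the allele of the other. FIE1 and FIE2 encode WD-repeat proteins related to the Arabidopsis protein FIE, a subunit of the Polycomb repressive complex that methylates histone H3 and keeps genes silent. Maize FIE1 is known as an endosperm gene expressed from the maternal allele, while FIE2 is expressed in embryo and endosperm, with a maternal bias early in endosperm growth. MEG1 encodes a small cysteine-rich peptide of the basal transfer cells, through which the maternal plant feeds the endosperm, and is expressed from the maternal allele at early stages. NRP1 encodes a NAM-related protein and is also known as maternally expressed in endosperm. Ratios of whole RNA pools do not separate the 2 alleles, so these arrays compare amounts of transcript and do not measure imprinting itself. In dissected tissue, fewer cells of a type and less RNA per cell cannot be told apart.

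All values are deposited log ratios, read here as log2 and as channel 1 over channel 2, then turned to hybrid over inbred. A negative value therefore means less signal in the hybrid. The labels state neither the log base nor the direction. Channel 1 over channel 2 is the likely direction because titles name the RNAs in that order, and the opposite direction would change every sign below. Channel 1 held the inbred RNA in odd-numbered replicates and the hybrid RNA in even-numbered ones. A probe is called where the adjusted p of a limma test, by Benjamini-Hochberg over all probes in the comparison, was under 0.05. The share of all probes called is given as a percentage beside most comparisons.

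Coverage differed between the genes. P_FIE2 had a value on 36 of 48 arrays, P_FIE1 on 33, P_MEG1 on 29 and P_NRP1 on 27. No probe of the P_ set had a value on 10 arrays, all of cross UH301/UH005, and 8 of these were embryo arrays. Of the 38 arrays that carried P_ values, P_FIE2 was present on 94.7%, P_FIE1 on 86.8%, P_MEG1 on 76.3% and P_NRP1 on 71.1%, against 89.5% for the median P_ probe. In endosperm P_FIE2 had a value on all 22 such arrays and P_MEG1 on 19, while P_NRP1 had one on 14. In embryo P_FIE2 had 14 of 16, P_FIE1 and P_NRP1 13 each, and P_MEG1 10. Loops with a value on all 4 arrays numbered 8 for P_FIE2, 6 for P_FIE1, 5 for P_MEG1 and 5 for P_NRP1. Signal intensities were not used here, so a missing value cannot be read as absent transcript.

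**Figure D1:**
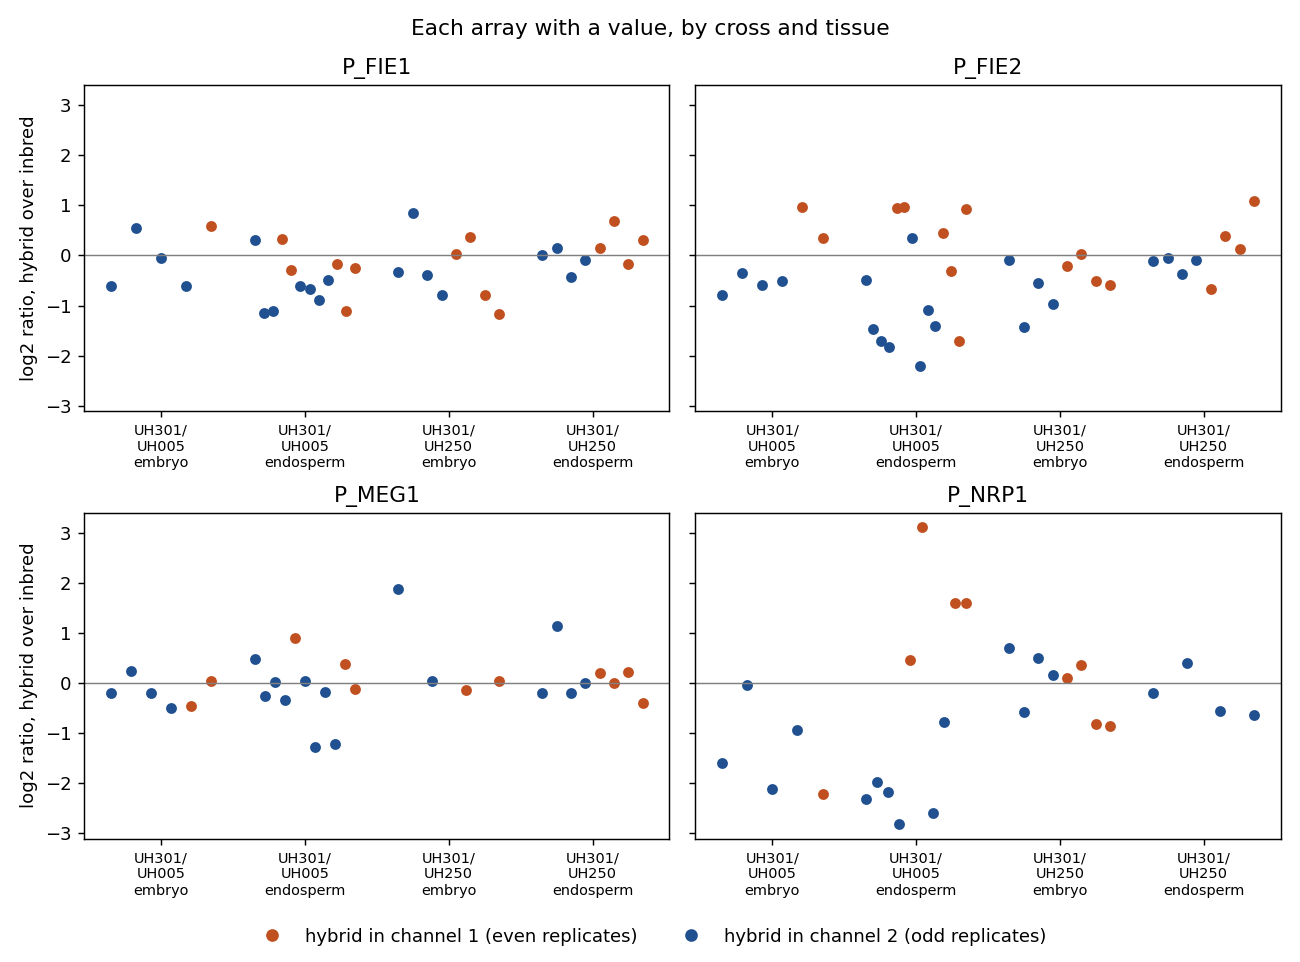
Log2 ratio of hybrid over inbred on every array with a value, in 1 panel per gene, with cross and tissue along the x axis. Each point is 1 array, coloured by the channel that held the hybrid RNA. P_NRP1 spans -2.81 to 3.11 in the UH301/UH005 endosperm, where its points separate by channel, and P_FIE1 stays between -1.17 and 0.84 on all 33 arrays.

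FIE1 signal was lower in the hybrids than in the inbreds in the UH301/UH005 endosperm, by a margin that passed the test on single arrays but not without any 1 replicate. P_FIE1 was below 0 on 10 of 12 arrays there, with a median of -0.55 and a range of -1.15 to 0.32. In the UH301/UH250 endosperm it was below 0 on 3 of 8 arrays, with a median of 0.082. The 2 crosses overlapped in range, and their whole-loop mid-parent differences, -0.66 in the former and -0.087 and 0.25 in the latter, could not be tested against each other. In the UH301/UH005 embryo P_FIE1 was below 0 on 3 of 5 arrays, at -0.61 for 005x301 over UH005, -0.044 for 301x005 over UH005 and -0.61 for 301x005 over UH301, and its whole loop gave a mid-parent difference of -0.18. Both arrays of 005x301 over UH301 were above 0, at 0.54 and 0.59, and the fitted 0.57 ± 0.25 had an adjusted p of 0.301 (1.64% called).

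In the UH301/UH005 endosperm, hybrid 301x005 over UH005 measured -0.89 in replicate 3 and -1.11 in replicate 4, which have opposite dye orientations. The replicate 4 array was sparser, with values for 2297 probes against 3085 on the replicate 3 array. The fitted value was -0.99 ± 0.25 (SE, n = 2 arrays), with an adjusted p of 0.0152. In this comparison 244 of 2994 probes were called (8.15%). Leaving out either array ended the call, with an adjusted p of 0.0559 without replicate 3 and of 0.288 without replicate 4. The same hybrid over its seed parent UH301 gave -1.11, -0.29, -0.49 and -0.24 in replicates 1 to 4. All 4 arrays were below 0, but the fitted -0.53 ± 0.18 had an adjusted p of 0.999, where no probe was called (0%) and 131 of 3346 had an unadjusted p under 0.05.

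For hybrid 005x301, P_FIE1 was below UH301 on both arrays with a value, at -1.15 in replicate 1 and -0.67 in replicate 3. Both arrays had the hybrid in channel 2, so this comparison was not tested. Over its seed parent UH005 the values were 0.30, 0.32, -0.61 and -0.17, and the fitted -0.039 ± 0.18 had an adjusted p of 1 (0.119% called). Arrays of this hybrid against UH005 therefore lay on both sides of 0.

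Only 1 loop of the UH301/UH005 endosperm had P_FIE1 on all 4 arrays, so the mean of both hybrids minus the mean of both inbreds (the mid-parent difference) was not tested over whole loops. That loop, replicate 3, gave -0.66. A second fit, to single arrays with the loop as a random block, is given here because it called P_FIE1. Over the 4 genes it made 14 tests of the mid-parent difference with 1 call and 15 of the reciprocal difference with 1 call. It also made 15 tests of the inbred difference with 0 calls. Over all probes, the same fit called at most 10 for the mid-parent difference in any cross and tissue. By cross and tissue it called 1 to 99 for the reciprocal difference and 15 to 339 for the inbred difference. Both calls among the 4 genes are those of P_FIE1 described here. In that fit the mid-parent difference was -0.60 ± 0.12 (SE, 12 arrays of 4 loops) with an adjusted p of 0.0496, one of 10 calls among 3376 probes (0.296%). The call was lost without any 1 of the 4 replicates, where the value ran from -0.66 to -0.52 and the adjusted p from 0.0527 to 0.358. It was also lost with centred arrays and with a dye coefficient for each cross. The direction was the same under each of these settings.

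**Figure D2:**
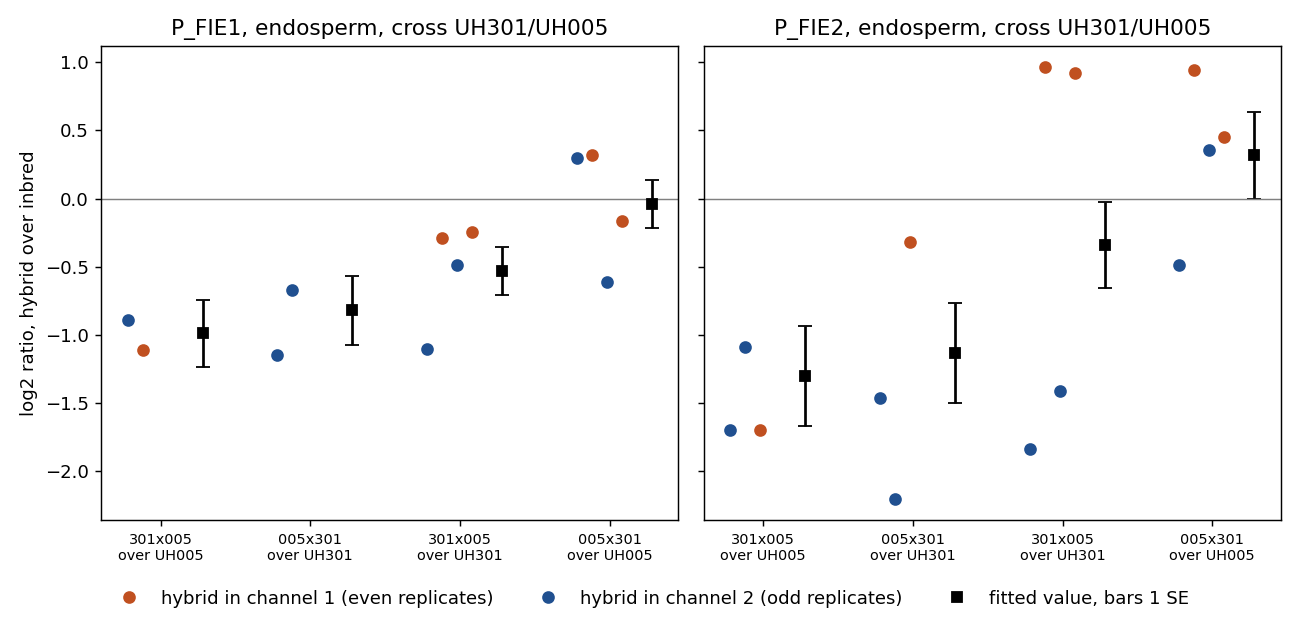
Log2 ratio of each hybrid over each inbred line in the UH301/UH005 endosperm, for P_FIE1 (left) and P_FIE2 (right). Circles are arrays, coloured by the channel that held the hybrid, and black squares are fitted values with bars of 1 SE. Both genes are below 0 on every array of 301x005 over UH005 and of 005x301 over UH301, while the other pairs hold values on both sides of 0 for P_FIE2 and, for 005x301 over UH005, for P_FIE1.

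In embryos of cross UH301/UH250, FIE1 signal was lower in 301x250 than in 250x301 in both loops. Whether this difference was called depended on the fit. Hybrid 301x250 was below both inbreds on 4 of 4 arrays, at -0.80 and -1.17 against UH301 and at -0.38 and -0.79 against UH250. Hybrid 250x301 was above UH301 at 0.84 and 0.37, and measured -0.32 and 0.020 against UH250. The gap depended on the inbred line: in replicate 1 the hybrids were at -0.80 and 0.84 against UH301, but at -0.38 and -0.32 against UH250. The array that gave 0.84 had values for 2142 probes, against 2852 to 3005 on the other arrays of its loop.

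The difference between the reciprocal hybrids (the UH301-seeded hybrid minus the other) was -0.85 in replicate 1 and -1.17 in replicate 2, a mean of -1.01 ± 0.21 (SE, n = 2 loops). Its whole loops left too few residual degrees of freedom for the loop test. On single arrays with the loop as a block the same -1.01 had an SE of 0.23 and an adjusted p of 0.0386, where 41 of 2847 probes were called (1.44%). The adjusted p was 0.0854 with no block, 0.233 over loops of 3 or 4 arrays, and 0.117 and 0.254 without replicate 1 and replicate 2. Against single inbreds, 301x250 over UH301 gave -0.98 ± 0.25 with an adjusted p of 0.0888 (0.448% called), and 250x301 over UH301 gave 0.60 ± 0.25 with an adjusted p of 0.202 (4.69% called).

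The reciprocal difference of P_FIE1 was below 0 in all 6 of its whole loops. It was -0.29 in the UH301/UH005 embryo, -0.046 in the UH301/UH005 endosperm, and -0.34 and -0.35 in the UH301/UH250 endosperm, beside the embryo values above. From loops with 3 arrays, the UH301/UH005 endosperm added 0.042 and -0.94. The inbred lines themselves (UH301 minus the other line) differed by -0.18 ± 0.25 in the UH301/UH250 embryo and -0.37 ± 0.25 in its endosperm (SE, n = 2 loops each). Whether the reciprocal difference of P_FIE1 differed between tissues could not be tested over whole loops, and the value for endosperm minus embryo in cross UH301/UH250 was 0.67 ± 0.29.

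**Figure D3:**
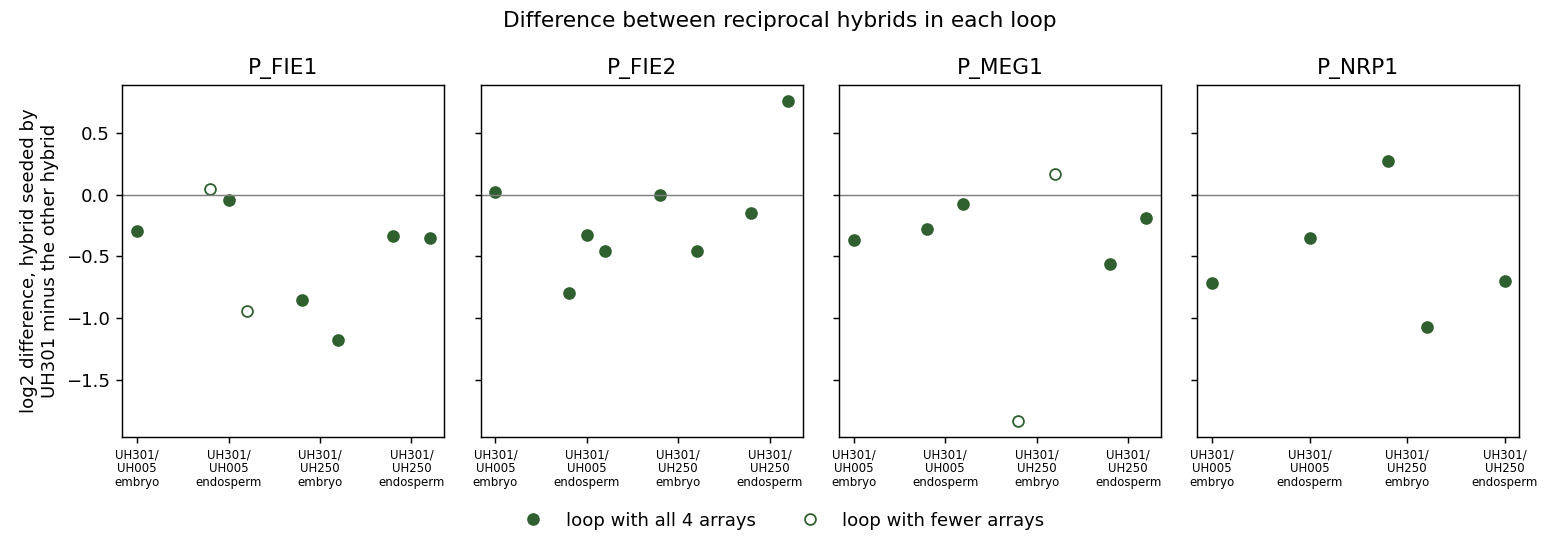
Log2 difference between the UH301-seeded hybrid and its reciprocal in each loop, in 1 panel per gene. Filled points are loops with all 4 arrays and open points loops with fewer. P_FIE1 lies below 0 in all 6 whole loops, from -1.17 to -0.046, while P_FIE2 reaches 0.76 in a UH301/UH250 endosperm loop.

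FIE2, the more widely expressed paralogue, had the fullest data and was the only gene tested over whole loops. None of its 9 loop contrasts was called. All 3 whole loops of the UH301/UH005 endosperm had less signal in the hybrids, but the size of the difference went with dye orientation. The mid-parent difference there was -1.37 in replicate 1 and -1.09 in replicate 3, which had the inbred in channel 1. It was -0.16 in replicate 4, which had the hybrid in channel 1. After the dye coefficient the mean was -0.76 ± 0.15 (SE, n = 3 loops, 95% interval -1.12 to -0.40) with an adjusted p of 0.57. No probe was called there (0% of 2076, 159 with an unadjusted p under 0.05).

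Replicate 2 had P_FIE2 on only 2 of its arrays, 0.95 for 005x301 over UH005 and 0.96 for 301x005 over UH301. Their mean of 0.95 is also an estimate of the mid-parent difference, and it lies above every other loop. Replicate 2 had the hybrid in channel 1, as replicate 4 did. Both loops of that orientation thus lay above both loops of the other orientation in this endosperm. With this loop included, the value was -0.42 ± 0.23 with an adjusted p of 0.758. The 2 loops of the UH301/UH250 endosperm gave -0.16 and 0.23, a mean of 0.038 ± 0.18 (adjusted p 1, 0% of 1890 called, 23 with an unadjusted p under 0.05). In the UH301/UH250 embryo both loops were below 0, at -0.77 and -0.32, with a mean of -0.54 ± 0.18 (adjusted p 0.701, 0% of 1460 called, 94 with an unadjusted p under 0.05). The single whole loop of the UH301/UH005 embryo gave -0.56, and a pair of arrays of replicate 4, of opposite orientation, gave 0.65.

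Differences between groups were tested for P_FIE2 directly and none was called. The mid-parent difference of cross UH301/UH005 minus that of cross UH301/UH250 in endosperm was -0.80 ± 0.23 (adjusted p 0.998, 0% called, 23 probes with an unadjusted p under 0.05). Endosperm minus embryo within cross UH301/UH250 was 0.58 ± 0.25 (adjusted p 0.999, 0% called, 21 with an unadjusted p under 0.05). The matching differences of the reciprocal contrast were -0.83 ± 0.35 between crosses and 0.53 ± 0.38 between tissues, and those of the inbred contrast were 0.94 ± 0.68 and -0.98 ± 0.75. Their adjusted p lay between 0.762 and 0.999 (0% called in each of the 4, with 51 to 122 probes at an unadjusted p under 0.05).

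The reciprocal hybrids had P_FIE2 in the same order in all 3 whole loops of the UH301/UH005 endosperm, with -0.79, -0.33 and -0.46. The mean was -0.53 ± 0.22 (95% interval -1.04 to -0.0063) with an adjusted p of 0.358, in a comparison with 34 of 2508 probes called (1.36%). By array, P_FIE2 in the UH301/UH250 embryo was below 0 on 7 of 8 arrays, from -1.44 to 0.037, and in the UH301/UH250 endosperm on 5 of 8, from -0.67 to 1.10. In cross UH301/UH250 the reciprocal difference was -0.00028 and -0.46 in the 2 embryo loops, with a mean of -0.23 ± 0.27 (adjusted p 0.689, 0.249% called), and 0.30 ± 0.27 in endosperm (adjusted p 1, 0% of 2177 called, 29 with an unadjusted p under 0.05), where the loops disagreed in sign at -0.15 and 0.76.

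Inbred lines did not differ in P_FIE2 beyond the spread of the loops. UH301 minus UH005 in endosperm was 0.56, 1.44 and -0.93 in replicates 1, 3 and 4, with a mean of 0.36 ± 0.43 (adjusted p 0.726). In that comparison 151 of 2508 probes were called (6.02%). UH301 minus UH250 was 0.40 ± 0.53 in embryo (adjusted p 0.933, 0% of 1604 called, 119 with an unadjusted p under 0.05) and -0.58 ± 0.53 in endosperm (adjusted p 0.882, 0% of 2177 called, 134 with an unadjusted p under 0.05).

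On every endosperm array with a value, P_FIE2 in a UH301/UH005 hybrid was below the inbred line that gave its pollen, and 1 of the 2 pairs passed the test. Hybrid 301x005 over UH005 measured -1.70, -1.09 and -1.70 in replicates 1, 3 and 4. The fitted value was -1.30 ± 0.37 (SE, n = 3 arrays) with an adjusted p of 0.0272, in the comparison given for P_FIE1 above (8.15% called). Hybrid 005x301 over UH301 measured -1.46, -2.20 and -0.32, and the fitted -1.14 ± 0.37 had an adjusted p of 0.0574 (249 of 2980 called, 8.36%). All 6 arrays of these pairs were below 0, in both dye orientations. In replicate 4 the arrays of these pairs had values for 2297 and 2083 probes, against 3422 and 3341 on the other arrays of that loop. The call for 301x005 was lost without replicate 1 (adjusted p 0.0721), without replicate 4 (adjusted p 0.399) and without the dye coefficient (adjusted p 0.0523). With no replicate block, 005x301 over UH301 passed the threshold, at -1.19 with an adjusted p of 0.0388.

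Against the seed parent the arrays split. P_FIE2 in 301x005 over UH301 was -1.84 and -1.41 in replicates 1 and 3 and 0.96 and 0.92 in replicates 2 and 4, with a fitted value of -0.34 ± 0.32 (adjusted p 0.999, 0% called). The sign followed the dye orientation on these 4 arrays. In 005x301 over UH005 the values were -0.49, 0.95, 0.36 and 0.45 in replicates 1 to 4, and the fitted value was 0.32 ± 0.32 (adjusted p 1, 0.119% called).

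These 4 ratios of a loop are not free of each other. Starting from 301x005 over UH301, adding 005x301 over UH005 and subtracting the other pair gives 0, apart from measurement error, if each RNA has 1 level in the loop. For P_FIE2 in the UH301/UH005 endosperm this loop sum was 0.84 in replicate 1, 2.24 in replicate 3 and 3.40 in replicate 4. Over all probes in that cross and tissue the absolute loop sum had a median of 0.40 and a 95th percentile of 2.29. The mean loop sum of P_FIE2 was 2.16 ± 0.51 (SE, n = 3 loops) with an adjusted p of 0.503 (0% of 2508 probes called, 130 with an unadjusted p under 0.05). The sum is the 2 ratios to seed parents minus the 2 ratios to pollen parents, so the gap between these pairs of ratios is the same quantity as the failure of the loop to close. Its part in the call for 301x005 over UH005 was not tested.

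In cross UH301/UH250 the loop sums of P_FIE2 were 0.22 and -0.082 in the UH301/UH250 endosperm, with a mean of 0.070 ± 0.62 (0% of 2177 called, 13 with an unadjusted p under 0.05), and 0.92 and -0.34 in the UH301/UH250 embryo, with a mean of 0.29 ± 0.62 (0% of 1604 called, 103 with an unadjusted p under 0.05). For P_FIE1 the sum was 0.46 in the 1 whole loop of the UH301/UH005 endosperm and -1.73 in that of the UH301/UH005 embryo. In the UH301/UH250 embryo, the tissue of its reciprocal difference, it was -1.57 in replicate 1 and -0.73 in replicate 2. The reciprocal differences of those loops were -0.85 and -1.17. Over all probes the absolute loop sum had a median of 0.38 and a 95th percentile of 1.94 in the UH301/UH005 embryo. In the UH301/UH250 embryo these were 0.41 and 2.36. The sums of P_MEG1 and P_NRP1 ran from -1.13 to 0.95.

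**Figure D4:**
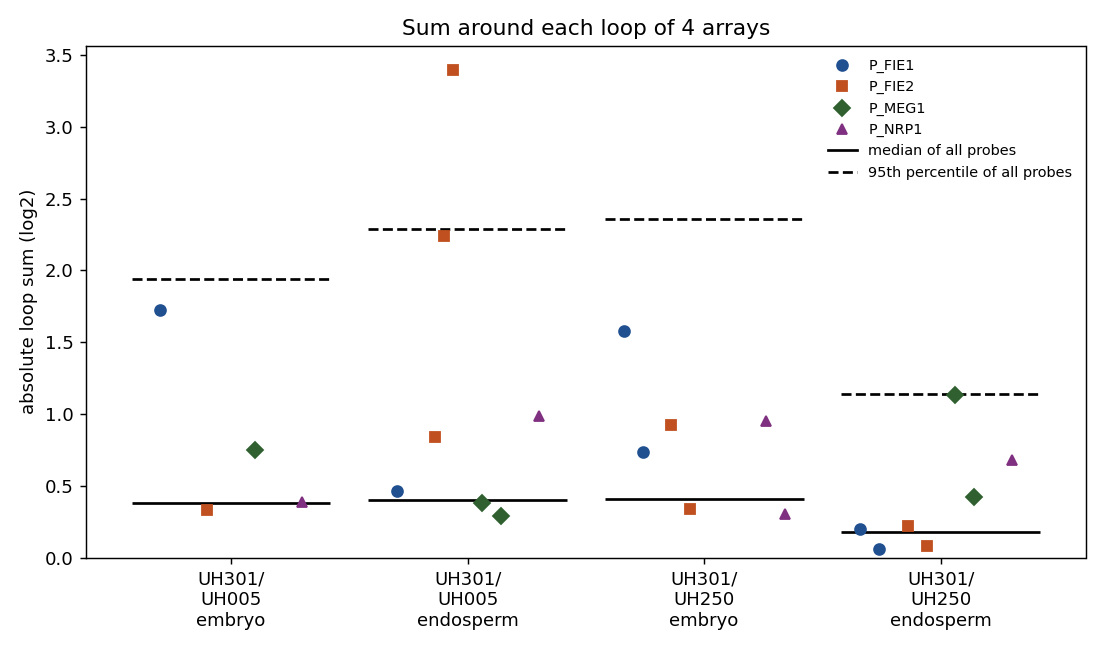
Absolute sum around each whole loop of 4 arrays, on the log2 scale, by cross and tissue. Each symbol is 1 loop of 1 gene, the solid line is the median of all probes and the dashed line their 95th percentile. P_FIE2 in the UH301/UH005 endosperm reaches 3.40, above the 95th percentile of 2.29, and in the UH301/UH250 endosperm both of its loops are at 0.22 or less.

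The 2 dye orientations gave different ratios for FIE2. Before turning, P_FIE2 was higher in channel 1 on 11 of 12 arrays of cross UH301/UH005 with the hybrid in channel 2, and on 6 of 8 with the hybrid in channel 1. In cross UH301/UH250 the counts were 8 of 8 and 4 of 8. The fitted excess of channel 1 was 0.43 ± 0.13 on the log2 scale over all arrays (adjusted p 0.0369), in a test that called 381 of 3559 probes (10.7%). Fitted for each cross, it was 0.62 ± 0.17 in cross UH301/UH005 (adjusted p 0.0206, 12.6% called) and 0.21 ± 0.19 in cross UH301/UH250 (adjusted p 0.722, 0.0312% called). P_FIE1 and P_MEG1 had coefficients of 0.069 ± 0.078 and 0.098 ± 0.14 over all arrays.

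NRP1 carried the widest ratios and the clearest split by orientation. In the UH301/UH005 endosperm with the hybrid in channel 2, P_NRP1 was -2.32, -2.18, -1.97 and -2.81 in replicate 1 and -2.59 and -0.77 in replicate 3. With the hybrid in channel 1 it was 0.47 and 3.11 in replicate 2 and 1.60 and 1.60 in replicate 4. The orientations did not overlap, and channel 1 was the brighter channel on all 10 arrays. In embryo, the 4 arrays of replicate 3 were at -1.60, -2.12, -0.034 and -0.94, and the single array of replicate 4, of opposite orientation, was at -2.22.

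In the UH301/UH250 endosperm that split could not be looked for, since P_NRP1 had a value on 0 arrays with the hybrid in channel 1. In the embryo of that cross, channel 1 was higher on 1 of 4 arrays with the hybrid in channel 2 and on 2 of 4 with the hybrid in channel 1. The coefficient of channel 1 was 1.38 ± 0.43 in cross UH301/UH005 (adjusted p 0.0548) and -0.25 ± 0.52 in cross UH301/UH250 (adjusted p 0.924). In the UH301/UH250 embryo, replicate 1 gave 0.70, 0.50, -0.58 and 0.16 and replicate 2 gave 0.095, -0.82, 0.36 and -0.86. The 4 endosperm arrays of that cross, all from replicate 1, lay between -0.64 and 0.40.

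The mid-parent difference of P_NRP1 in the UH301/UH005 endosperm followed the orientation as well. Whole loops gave -2.32 in the UH301/UH005 endosperm (replicate 1) and -1.17 in the embryo (replicate 3), while pairs of arrays gave 1.79 and 1.60 in endosperm replicates 2 and 4. No contrast of it could be tested over whole loops, and on single arrays its mid-parent difference in that endosperm was -0.41 ± 0.58 (adjusted p 0.844). Its reciprocal difference, not tested over whole loops, was -0.72 in the UH301/UH005 embryo, -0.35 in that endosperm, 0.27 and -1.07 in the UH301/UH250 embryo and -0.69 in the UH301/UH250 endosperm. P_NRP1 was tested in 7 comparisons with a single inbred and called in none. The largest difference among these, 301x005 over UH301 in embryo, had -0.94 and -2.22, a fitted -1.58 ± 1.0 and an adjusted p of 0.687 (0.137% called). In endosperm the same pair gave -2.81, 3.11 and 1.60, a fitted 0.36 ± 0.83 (0% called).

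**Figure D5:**
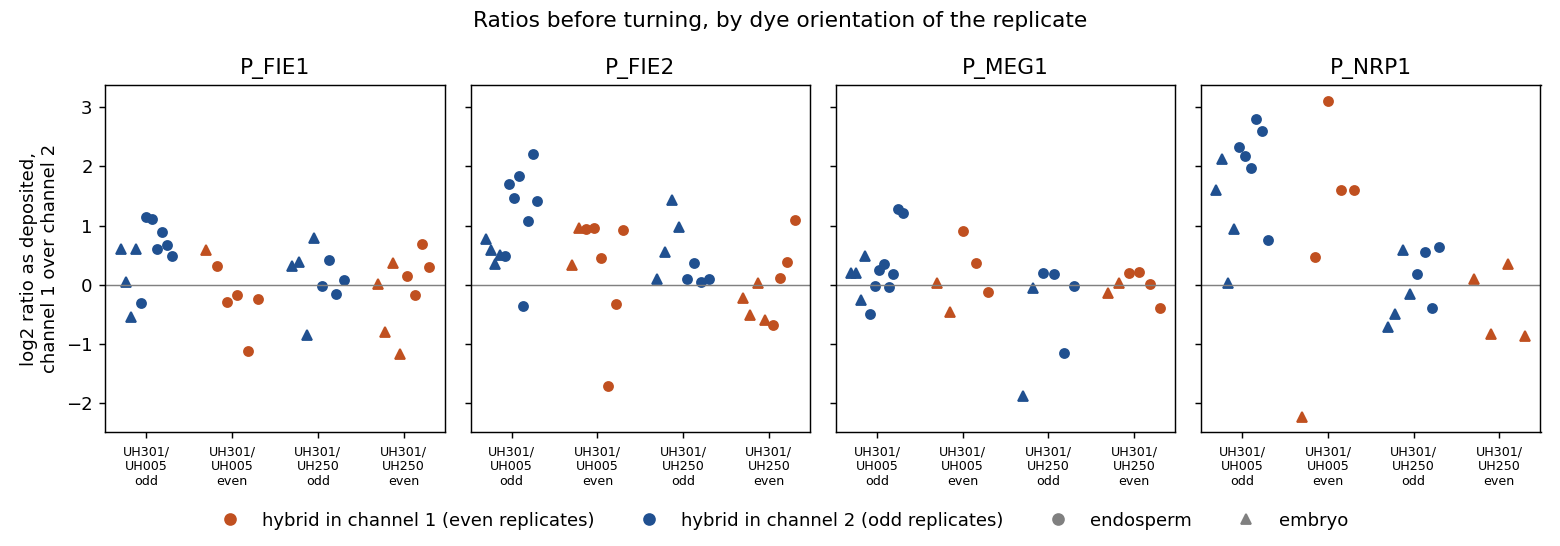
Deposited log2 ratio of channel 1 over channel 2, before turning, in 1 panel per gene. Columns are the 2 crosses with odd replicates (hybrid in channel 2) and even replicates (hybrid in channel 1), circles are endosperm arrays and triangles embryo arrays. P_NRP1 is above 0 on all 10 endosperm arrays of cross UH301/UH005 in both orientations, with a highest value of 3.11.

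MEG1, the transfer-cell gene, had values on both sides of 0 in both tissues, from -1.28 to 1.88. Its median over 29 arrays was 0.0095, with 15 arrays above 0 and 14 below. In the UH301/UH005 endosperm, replicate 3 was low against UH301 for both hybrids, at -1.28 and -1.21, and near 0 against UH005, at 0.039 and -0.18. Replicate 1 gave -0.26 and -0.35 against UH301 and 0.48 and 0.014 against UH005. In both loops the ratios to UH301 were thus below those to UH005.

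The inbred contrast puts a size to this. UH301 minus UH005 was 0.55 in replicate 1 and 1.17 in replicate 3, a mean of 0.86 ± 0.36 for P_MEG1 (SE, n = 2 loops, not tested). On single arrays the value was 0.63 ± 0.32 with an adjusted p of 0.284. UH301 minus UH250 in endosperm had opposite signs in its 2 loops, -0.77 and 0.40. The mid-parent difference was -0.027 and -0.66 in the UH301/UH005 endosperm and 0.19 and 0.0083 in the UH301/UH250 endosperm.

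The reciprocal difference of P_MEG1 was below 0 in all 5 whole loops. It was -0.28 and -0.073 in the UH301/UH005 endosperm, -0.56 and -0.19 in the UH301/UH250 endosperm, and -0.37 in the UH301/UH005 embryo. The means were -0.18 ± 0.22 and -0.38 ± 0.22 (SE, n = 2 loops each), which is within 2 SE of 0 for each cross. On single arrays the UH301/UH005 endosperm value turned to 0.056 ± 0.32. In the UH301/UH250 embryo only 4 arrays had a value, and 250x301 over UH250 stood apart at 1.88 on its single array, with the other 3 between -0.13 and 0.050. Pairs of these arrays gave reciprocal differences of -1.83 in replicate 1 and 0.17 in replicate 2.

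Over all 15 comparisons of a hybrid with a single inbred in which a gene of the 4 could be tested, there were 41 gene tests and 2 calls, those of P_FIE1 and P_FIE2 for 301x005 over UH005 in endosperm. The share of all probes called was 8.15% and 8.36% for the 2 endosperm pairs of cross UH301/UH005 with a pollen parent, and 0% and 0.119% for those with a seed parent. In the UH301/UH250 endosperm it was 0.147% and 0% for 301x250 over UH250 and UH301, and 0.146% and 0.0691% for 250x301 over the same lines. In embryos of cross UH301/UH005 it was 0.421% and 0.137% for 301x005 over UH005 and UH301, and 1.64% for 005x301 over UH301. In embryos of cross UH301/UH250 it was 0.0712% and 0.448% for 301x250 over UH250 and UH301, and 0.18% and 4.69% for 250x301 over the same lines. No call in any of these other 14 comparisons fell on the 4 genes.

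The FIE2 values can be set beside those of other probes. Probes with the identifiers P_FIE2_ and P_FIE2_5 had values on 25 and 23 arrays, and whether they target the same transcript is not stated in the files. Over 24 and 23 shared arrays their ratios had a Pearson r of 0.78 and 0.65 with P_FIE2, as a description. In the UH301/UH005 endosperm P_FIE2_ gave -2.65 and -2.17 for 301x005 over UH005, and P_FIE2_5 gave -3.83 on its single array. All 3 of these arrays had the hybrid in channel 2, so the pair was not tested for either probe. For 005x301 over UH005, P_FIE2_ gave -4.26 in replicate 1, with the hybrid in channel 2, and 1.60 and 1.06 in replicates 2 and 4, with the hybrid in channel 1. Their channel 1 coefficients in cross UH301/UH005 were 1.67 ± 0.52 (adjusted p 0.0625) and 1.46 ± 0.37 (adjusted p 0.0334), beside the 0.62 of P_FIE2. P_FIE2_5 and P_FIE2 parted in the UH301/UH250 endosperm. There the reciprocal difference of P_FIE2_5 was -0.25 in replicate 1 and -2.28 in replicate 2 (not tested), and that of P_FIE2 was -0.15 and 0.76.

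Across arrays, the probes with a P_ gene symbol most like P_FIE2 were P_CINFUL2 (r = 0.89, 26 shared arrays), P_CIN4 (r = 0.85, 28 arrays) and P_CENH3 (r = 0.83, 33 arrays). P_NRP1 was most like P_CINFUL2 (r = 0.92, 23 arrays), P_GTD101 (r = 0.89, 25 arrays) and P_PREM2 (r = 0.87, 24 arrays). CINFUL2, CIN4 and PREM2 are names of maize retrotransposons, and CENH3 is the histone H3 variant of centromeres. Over all probes with at least 20 shared arrays, the 95th percentile of r was 0.53 for P_FIE2 and 0.51 for P_NRP1. P_FIE1 was most like P_SET115 (r = 0.74, 24 arrays), P_BRD101 (r = 0.71, 26 arrays) and P_DEK34 (r = 0.67, 27 arrays), beside a 95th percentile of 0.39. P_MEG1 had lower values, 0.63 for P_TEKAY and P_XILON and 0.62 for P_CHA109, beside a 95th percentile of 0.37. TEKAY and XILON are also names of maize retrotransposons. Among all probes, the probe most like P_MEG1 was LA1, which has no P_ identifier, at r = 0.68. These correlations are descriptions: arrays of a loop share dye orientation, are taken to share RNAs, and are not independent.

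Among the 4 genes themselves, ratios correlated at 0.52 between P_FIE1 and P_FIE2 (33 shared arrays), 0.63 between P_FIE2 and P_NRP1 (26 arrays) and 0.21 between P_FIE1 and P_MEG1 (27 arrays). P_FIE1 and P_FIE2 had the same sign on 21 of 33 arrays.

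Few partners of the FIE proteins were on the array. Of 15 Polycomb names looked up, 5 had a probe, all of the NFC group of MSI-like histone-binding proteins, and of 25 DNA methylation names 7 had one, DMT101 to DMT106 and the demethylase DME. Only 6 of these probes (NFC101, NFC102, NFC103, DMT102, DMT104 and DME) could be tested in a loop contrast. None of the 6 was called, in contrasts where 0% to 6.02% of all tested probes were. With shares this low, the absence of a call among 6 probes says little about these genes. In the UH301/UH005 endosperm the 3 Polycomb probes tested had mid-parent differences between -0.17 and -0.13, beside a median of -0.021 over all tested probes. In the UH301/UH250 embryo, the tissue of the FIE1 reciprocal difference, the 3 Polycomb probes tested had reciprocal differences of -0.85 ± 0.20 for P_NFC103 (adjusted p 0.105), -0.32 ± 0.20 for P_NFC102 (adjusted p 0.43) and 0.13 ± 0.17 for P_NFC101 (adjusted p 0.736). The 2 DNA methylation probes tested had -0.75 ± 0.25 for P_DMT104 (adjusted p 0.183) and -0.30 ± 0.40 for P_DMT102 (adjusted p 0.73), in the comparison with 0.249% of all probes called. The median of the 3 Polycomb probes tested there was -0.32, beside 0.038 over all tested probes. In that comparison 284 of 1604 probes had an unadjusted p under 0.05. A link between these probes and P_FIE1 was not tested.

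The dissected tissues could not be checked against their markers. Of 9 transfer-layer names, MEG1 and MRP1 were on the array, and none of the names looked up for the embryo-surrounding region, starchy endosperm, aleurone or embryo was. Ratios of 2 samples of the same tissue also carry no level by which embryo and endosperm could be told apart.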

How the data were processed

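The authors deposited 1 log ratio per probe and array, per the labels from mRNA amplified by template switching and long-distance PCR and labelled with Cy3 or Cy5. These deposited values were read as log2 without further normalisation, since array medians lay between -0.20 and 0.11. Background correction and normalisation are not given in the sources used. Of 3592 entries, 7 controls were left out, and an array had 926 to 3429 probes. No intensities were used, and precision is limited by how many arrays there are.

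The loop of 4 arrays was the replicate. The labels call the loops biological replicates and state a shared pollination day. Arrays with the same replicate number deviated together, with a median r of 0.18 to 0.30. Each loop contrast was fitted by least squares per probe with variances moderated by limma 3.58.1 in R 4.3.3, two-sided, over all crosses and tissues, with a dye coefficient for the mid-parent difference. At least 2 loops and 3 residual degrees of freedom were needed, with both dye orientations for mid-parent differences. Hybrid over inbred was fitted on single arrays with a loop block (correlation 0.157). The reciprocal test was tried on simulated data, with differences of 2 on the log2 scale planted in the UH301/UH005 endosperm. Smaller differences, and the mid-parent and hybrid-over-inbred tests, were not tried in this way. The test of the loop sum was added after the values were seen. The loop contrasts were also fitted on single arrays with the loop block, and the 2 of P_FIE1 that were called are reported in full. The 4 genes were taken by name. Other genes were named from lists of Polycomb and DNA methylation genes, and as the 3 probes with a readable P_ gene symbol and the highest correlation over at least 20 shared arrays. Members and lists were chosen with earlier results of these data known. Gene names were matched to the Zm-B73-REFERENCE-NAM-5.0 annotation, where each of the 4 had 1 match. Alternatives covered centring, scaling, incomplete loops, the dye coefficient, the replicate block, the spread used and each replicate left out.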

Additional observations from a re-analysis of the deposited data

Results flagged for a closer look

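The mid-parent difference of P_MEG1 in endosperm was below 0 in both whole loops of cross UH301/UH005 and above 0 in both of cross UH301/UH250, and the means differed by -0.44 on the log2 scale. The difference was not tested, because too few whole loops of this probe remained. Both UH301/UH005 loops had the hybrid in channel 2, while the UH301/UH250 loops held both orientations. A pair of UH301/UH005 arrays of the other orientation, replicate 4, gave 0.13. With the dye coefficient the difference was -0.53 ± 0.37 (SE). A search for a value far from the others covered 8 groups with 4 to 10 values, each made of arrays of 1 hybrid against 1 inbred line in 1 tissue, or of the loops of 1 cross and tissue, and found 0. Groups with fewer values were not searched. The 4 P_MEG1 embryo arrays of cross UH301/UH250, one of them at 1.88, belong to 4 different pairs of hybrid and inbred and formed no such group.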

How the results depend on the processing

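No loop contrast of the 4 genes was called over whole loops, and centring the arrays reversed no direction among these or the single-array results. Under the replicate block on single arrays, P_MEG1's reciprocal difference in the UH301/UH005 endosperm moved to 0.056 (0.087 with no block) and its loop sum to 0.71 (0.84 with no block, 0.17 with scaled arrays). Scaling gave -0.43 for P_FIE1's reciprocal difference in the UH301/UH250 endosperm and -0.19 for P_FIE2's loop sum in the UH301/UH250 embryo. With no replicate block, P_FIE2 in 005x301 over UH301 (endosperm) was called at -1.19, and P_FIE1's single-array reciprocal difference in the UH301/UH250 embryo was not, at -1.01. Without the dye coefficient P_FIE2 in 301x005 over UH005 was not called, at -1.41. P_FIE1's single-array mid-parent difference in the UH301/UH005 endosperm was not called with centred arrays (-0.57) or a dye coefficient per cross (-0.59). The causes were not tested. Counts of calls over all probes moved too. Reciprocal differences in the UH301/UH005 endosperm had 34 calls, 99 on single arrays, 0 with the spread of those loops alone and 0 to 42 with a replicate left out; inbred differences there had 151, 339, 35 and 41 to 101. The replicate block called 10 probes for the UH301/UH005 endosperm mid-parent difference, against 0 over loops and 43 with no block. Single arrays with the block called 41 probes for the reciprocal difference in the UH301/UH250 embryo (10 with no block, 19 with no dye coefficient), against 4 over loops and 0 with scaled arrays, and 26 and 15 for the inbred difference in the UH301/UH250 embryo and endosperm, against 0. Scaling left 49 of the 151 inbred calls in number. The 10 single-array mid-parent calls were 6 with a dye coefficient per cross and as few as 0 without replicate 3. In endosperm, 301x005 over UH005 had 244 calls and 120 without replicate 4, and 005x301 over UH301 had 249 calls and 115 to 140 with a replicate left out. In embryo, 250x301 over UH301 had 90 calls, 49 with no dye coefficient, 14 without replicate 1 and 238 without replicate 2, 005x301 over UH301 had 49 and, without replicate 3, 89, and 301x005 over UH005 had 13, with 46 and 0 when replicate 3 or 4 was left out. The loop sum in the UH301/UH250 embryo had 0 calls and 44 without replicate 2. The inbred difference in the UH301/UH005 embryo had 8 calls and 121 on single arrays with the block. Ratios to an inbred with 12 calls or fewer as reported varied between 0 and 70. The spread of the loops alone gave no value for mid-parent differences in cross UH301/UH250.

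With 1 replicate left out, a lone sample was assumed to vary like the other groups. The calls became ranges of -1.19 to -0.79 (P_FIE1) and -1.67 to -0.80 (P_FIE2) for 301x005 over UH005 in endosperm, -0.66 to -0.52 for P_FIE1's single-array mid-parent difference there, and -1.17 to -0.85 for its reciprocal difference in the UH301/UH250 embryo. Among uncalled loop contrasts, P_FIE1's mid-parent difference ran from -0.56 to 0.0010 in the UH301/UH250 embryo and -0.20 to 0.36 in the endosperm. P_FIE2's reciprocal difference ran from -0.46 to -0.00028 in the UH301/UH250 embryo and -0.15 to 0.76 in the endosperm, its inbred difference from -0.18 to 1.00 (UH301/UH005 endosperm) and -0.089 to 0.88 (UH301/UH250 embryo), and its loop sum from -0.34 to 0.92 (UH301/UH250 embryo) and -0.082 to 0.22 (UH301/UH250 endosperm). P_NRP1's reciprocal difference in the UH301/UH250 embryo ran from -1.07 to 0.27, its inbred difference from -0.11 to 0.81, and P_FIE1's inbred difference there from -0.38 to 0.020. P_MEG1's inbred difference in the UH301/UH250 endosperm ran from -0.77 to 0.40. Among uncalled ratios to an inbred, P_FIE1 ran from -0.36 to 0.060 (250x301 over UH250, embryo) and -0.22 to 0.16 (005x301 over UH005, endosperm). P_FIE2 ran from -0.63 to 0.32 and -1.10 to 0.33 (250x301 over UH250, embryo and endosperm) and -0.66 to 0.016 (301x005 over UH301, endosperm). P_MEG1 ran from -0.61 to 0.40 (005x301 over UH301) and -0.18 to 0.021 (301x005 over UH005) in embryo, and in endosperm from -0.21 to 0.21 and -0.12 to 1.27 (250x301 over UH250 and UH301), -0.56 to 0.099 (301x005 over UH301), -0.21 to 0.24 and -0.45 to 0.071 (301x250 over UH250 and UH301). P_NRP1 ran, in embryo, from -0.33 to 1.13 and -0.31 to 0.087 (250x301 over UH250 and UH301), -3.18 to 0.015 (301x005 over UH301), -1.31 to 0.99 and -1.33 to 0.63 (301x250 over UH250 and UH301), and from -0.62 to 1.76 in endosperm (301x005 over UH301).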
